A study of Homo sapiens with 3 samples.

Results

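The peaks described here are all FOXM1 ChIP-seq peaks on the long arm of chromosome 8 (8q) in Huh7, an established cell line of human hepatocellular carcinoma. They were chosen by position alone, as peaks on chromosome 8 whose deposited start was 46000000 or more on GRCh38. They numbered 550 of the 19773 peaks in both libraries together: 319 of 11502 in replicate 3 (2.77%) and 231 of 8271 in replicate 2 (2.79%). The short arm (8p), the nearest comparison, had 144 peaks in replicate 3 and 105 in replicate 2. The boundary fell in a gap. The long-arm peaks nearest the centromere began at 46617447 in replicate 3 (fold 3.62) and 47260695 in replicate 2 (fold 5.15). The last short-arm peaks ended at 43179346 in replicate 3 (fold 6.54) and 43179322 in replicate 2 (fold 5.13).

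The series held 3 libraries from untreated Huh7 cells: 2 ChIP libraries (replicate 2 and replicate 3), for which antibody G-5 against FOXM1 was used, and 1 input library without antibody and without peaks of its own here. Nothing in the labels tells whether separate cultures were used for the ChIP libraries, and with 2 libraries of 1 group no test over samples was possible. Peaks of a library are not replicates, so shares and differences below carry 95% intervals that cover counting error only, and no p-value was computed. A peak list measures no expression, so the liver identity of the cells was not checked by markers. Total read counts were not used here. A summit on the long arm rested on a median of 26 fragments in replicate 3 and 27 in replicate 2, counts rebuilt from the deposited fold and p.

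FOXM1 is a forkhead transcription factor that drives genes needed for mitosis and is often abundant in liver cancer. It reaches chromatin through forkhead motifs and through other complexes at promoters of cell cycle genes. The long arm of chromosome 8 is among the chromosome arms most often gained in hepatocellular carcinoma, and genes such as MYC, PTK2, MTDH and YWHAZ are discussed as drivers of that gain. The copy number of the arm in these cells was not measured here. No sequences are shown, since promoter sequences of this chromosome were not used here.

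Genes of the telomeric end of the arm led the list. Peaks of both libraries that overlapped by at least 1 bp were merged into shared loci, and loci were ranked by the lower of the fold enrichments in the libraries. Within a locus, the fold and summit of a library are those of its peak of highest fold. The shared summit is the midpoint between the summits of the libraries. Fold enrichment is the authors' own value for each peak, a linear ratio of ChIP to local background at the summit. Pairs of folds given below are for replicate 3 and then for replicate 2. The strongest shared locus lay at the adjoining ends of SCRIB, which encodes a scaffold of epithelial cell polarity, and PUF60, a splicing factor gene (143815144 to 143816392), with fold 6.47 in replicate 3 and 7.21 in replicate 2. It rested on 29 fragments in replicate 3 (exact Poisson 95% interval 19.4 to 41.6) and 33 in replicate 2 (22.7 to 46.3), over backgrounds of 3.05 and 3.02. These backgrounds were close to the lowest of each list, 2.88 in replicate 3 and 2.97 in replicate 2, which raises a fold as a high fragment count does. SCRIB was no longer called where partners had to overlap by at least 50% of each peak. Nearer the centromere, FAM83H, known for its role in tooth enamel, shared a locus with IQANK1 (143733125 to 143734084), with fold 5.25 in replicate 3 and 6.22 in replicate 2.

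Outside that end, the gene with the highest lower fold was NDRG1, a gene induced by hypoxia and stress (133297006 to 133297569), with fold 5.44 in replicate 3 and 5.18 in replicate 2, on 30 fragments in each. KCNS2, which encodes a modifying subunit of voltage-gated potassium channels, had fold 6.71 in replicate 3 and 5.09 in replicate 2 (98426637 to 98427692). KCNS2 lies wholly within STK3, so its locus is also inside that gene. EXT1, a polymerase of heparan sulfate chains, had fold 4.95 and 6.16 (118111500 to 118112224). The libraries ranked these genes differently, and the fragment intervals of KCNS2, 21.9 to 45.2 in replicate 3 and 17.0 to 38.1 in replicate 2, overlapped.

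The other genes among the 20 of highest lower fold had a lower fold between 4.2 and 4.79. DENND3, an activator of the small GTPase Rab12, had fold 4.79 in replicate 3 and 5.4 in replicate 2. RAB2A, a GTPase of traffic between endoplasmic reticulum and Golgi, had 4.95 and 4.55. HEY1, a transcriptional repressor of the Notch pathway, had 5.27 and 4.54. The zinc finger genes ZFAT (4.60 and 4.98), GLI4 (4.60 and 4.76) and ZNF517 (5.09 and 4.38) were among them. So were SPIDR, a scaffold of homologous recombination (4.51 and 5.15), and TONSL, which acts in repair at stalled replication forks (5.39 and 4.2). The set was completed by DPY19L4 (4.33 and 4.82), ZFTRAF1 (4.89 and 4.23), the gamma-glutamyl hydrolase gene GGH (5.99 and 4.21), and the Hippo pathway kinase gene STK3 with LOC112268016 at the same locus (4.23 and 4.47). With −log10 q of at least 5 in both libraries, 5 of the 20 were lost: ZFTRAF1, STK3, LOC112268016, GGH and TONSL. With summits required within 100 bp of each other, 5 were lost: FAM83H, IQANK1, ZNF517, STK3 and LOC112268016. ZFAT and HEY1 were lost with a window of 500 bp at gene ends, and IQANK1 and LOC112268016 with each locus counted for its nearest gene only.

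**Figure D1:**
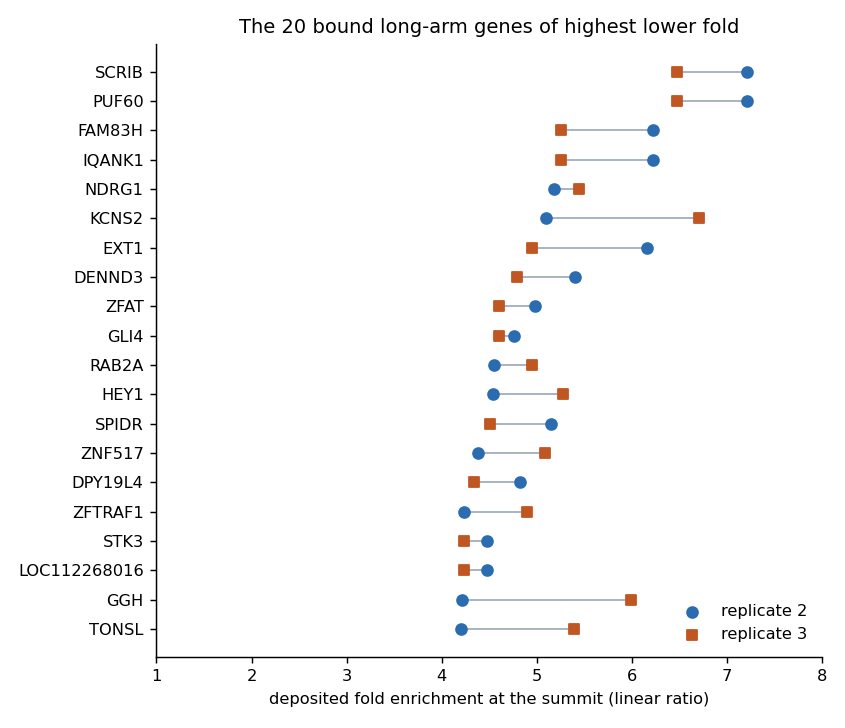
Deposited fold enrichment (linear ratio, horizontal axis) in replicate 2 (circles) and replicate 3 (squares) at the 20 bound protein-coding genes of the long arm with the highest lower fold; grey lines join the libraries. SCRIB and PUF60 share 1 locus with fold 6.47 in replicate 3 and 7.21 in replicate 2, and the libraries lie furthest apart at GGH, at 5.99 and 4.21.

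Over the whole arm 164 of 319 peaks of replicate 3 had a partner in replicate 2, which is 51.4% (exact 95% interval 45.8 to 57.0), against 49.5% over all peaks of that list. In replicate 2 the share was 71.9% (65.6 to 77.6), against 69.5% over its list. On the short arm the shares were 45.8% in replicate 3 and 64.8% in replicate 2. The long arm minus short arm difference was 5.58 percentage points in replicate 3 (Newcombe 95% interval -4.23 to 15.2) and 7.1 in replicate 2 (-3.35 to 18.04), so no difference was detectable. In replicate 3 the share with a partner was 75% among the 80 long-arm peaks with the highest −log10 q (60 peaks) and 33.8% among the 80 with the lowest (27 peaks). In replicate 2 the same shares were 72.4% of 58 peaks and 62.1% of 58, with overlapping exact 95% intervals (59.1 to 83.3 and 48.4 to 74.5), and the highest share, 86.0%, stood in the group next to the top.

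The shared peaks merged into 153 loci, of which 8 had a lower fold of 5 or more and 33 had one under 3. Replicate 3 had the higher fold at 92 of the 153 loci (60.1%), against 34 of 62 on the short arm (54.8%). On the other chromosomes it had the higher fold at 53.6% of 5142 loci. Summits of the libraries lay a median of 85 bp apart, and at 84 loci they were within 100 bp of each other (54.9%). That share was 58.1% on the short arm and 52.7% on the other chromosomes. Across loci, Spearman's rho of fold between the libraries was 0.329 over the 153 long-arm loci and 0.359 over the 62 short-arm loci. Both folds are divided by backgrounds that may come from the same control, and those backgrounds themselves had a rho of 0.657 on the long arm, so these values are descriptions. The rho of backgrounds was 0.848 on the short arm and 0.826 on the other chromosomes, where that of fold was 0.398.

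**Figure D2:**
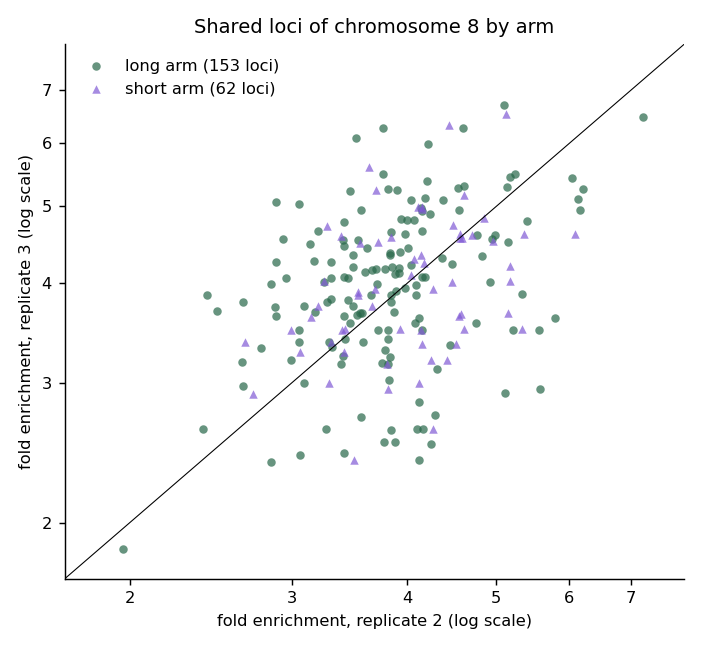
Deposited fold enrichment of each shared locus of chromosome 8 in replicate 2 (horizontal, log scale) and replicate 3 (vertical, log scale); green circles are the 153 long-arm loci, violet triangles the 62 short-arm loci and the line marks equal folds. The point clouds of the arms overlap, and the lowest point is the long-arm locus near WDR97, with 1.85 in replicate 3 and 1.97 in replicate 2.

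Fold enrichment did not set the arms apart. Its median was 3.86 in replicate 3 (quartiles 3.37 and 4.34) and 3.80 in replicate 2 (3.40 and 4.18) on the long arm, and 3.86 and 3.78 on the short arm. The share of peaks above the median of the whole list was 54.9% on the long arm and 53.5% on the short arm in replicate 3, a difference of 1.39 percentage points (Newcombe 95% interval -8.27 to 11.1). In replicate 2 it was 53.7% on the long arm and 51.4% on the short arm, a difference of 2.25 (-9.09 to 13.6). With −log10 q in place of fold, the difference in replicate 2 was 12.6 percentage points and its interval lay above 0 (1.11 to 23.6), while in replicate 3 it was 9.72 (-0.104 to 19.3).

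Most shared loci stood at ends of protein-coding genes. Such an end was within 1 kb of the summit at 107 of the 153 loci, or 69.9% (exact 95% interval 62.0 to 77.1), against 74.2% on the short arm (46 of 62) and 69.2% over all shared loci. The difference between the arms was -4.26 percentage points (Newcombe 95% interval -16.3 to 9.55). A further 37 loci lay inside genes away from their ends (24.2%) and 7 lay outside genes and over 5 kb from any end (4.58%). These shares were 21.0% and 4.84% on the short arm, and 21.9% and 6.48% on the other chromosomes. The median distance to an end was 374 bp on the long arm, 187 bp on the short arm and 360 bp on the other chromosomes. The gene table gave no strand for these genes, so a start could not be told from a finish.

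**Figure D3:**
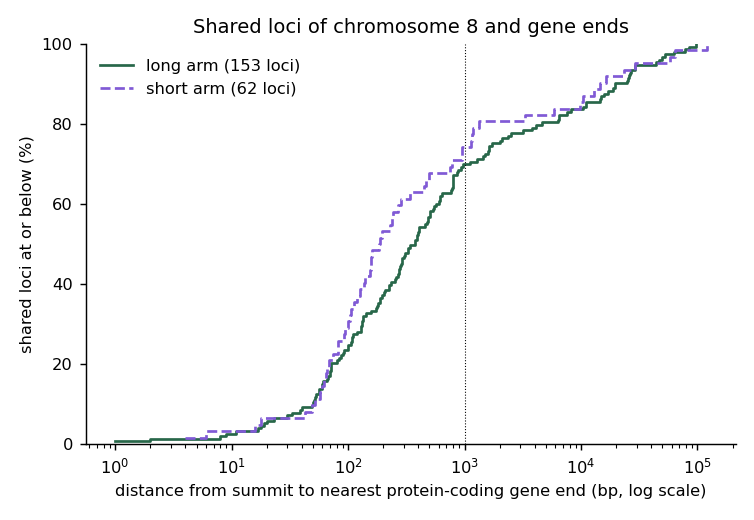
Share of shared loci (vertical axis, percent) with a summit at or below a given distance from the nearest protein-coding gene end (horizontal, bp, log scale), for the 153 long-arm loci (solid line) and the 62 short-arm loci (dashed line); the dotted line marks 1000 bp. At that mark the curves stand at 69.9% and 74.2%.

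The strongest shared locus away from gene ends lay between genes, 26526 bp outside CHD7, a chromatin remodeller gene mutated in CHARGE syndrome (60651715 to 60652430). It had fold 5.42 in replicate 3 and 6.04 in replicate 2, on 34 and 40 fragments. The next lay inside genes: in STK3, 97155 bp from the nearest gene end (98825278 to 98825695; fold 5.49 and 5.24), in IQANK1 (143771733 to 143772417; 5.29 and 5.14), and in PLEC, which encodes the cytoskeletal linker plectin (143943828 to 143944416; 5.10 and 6.14). The locus in PLEC was within 1 kb of an end of the microRNA gene MIR661. The fifth lay in ASAP1, a regulator of Arf GTPases and cell adhesion (130358138 to 130358739), with fold 5.30 in replicate 3 and 4.62 in replicate 2, 85236 bp from the nearest end. Of the 46 loci away from ends of protein-coding genes, 11 lay within 1 kb of an end of a noncoding gene.

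The widest shared locus lay inside NCOA2, a nuclear receptor coactivator gene, and spanned 1696 bp (70402429 to 70404124; fold 3.02 in replicate 3 and 3.83 in replicate 2). The next were those at CEBPD, a C/EBP transcription factor gene of the acute phase response (1616 bp, 47737329 to 47738944), and at the adjoining ends of RPL7 and the retinol dehydrogenase gene RDH10 (1286 bp). The loci at CEBPD and RDH10 each joined 2 peaks of either library, and that in NCOA2 joined 1 of each. At RDH10 the summits of the libraries were 900 bp apart. The replicate 2 peak nearest to RPL7, 174 bp from an end, had fold 3.46, below the 3.88 of that locus.

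The next question was how many genes of the arm carried such a locus. Protein-coding genes with a shared summit no more than 1 kb from either end are called bound. Because that summit is a midpoint, the summit of 1 library can lie further away, as in replicate 2 at TRAPPC9 (1007 bp). This describes peak calls and nothing more, since the series held no other antibody and no cells without FOXM1. On the long arm 115 of 423 genes were bound, which is 27.2% (exact 95% interval 23 to 31.7), against 19.1% of all 19974 protein-coding genes tested. On the short arm 46 of 292 were bound (15.8%, 11.8 to 20.4). The difference between the arms was 11.4 percentage points (Newcombe 95% interval 5.31 to 17.2), and that between the long arm and all other genes was 8.23 (4.17 to 12.7). Of the 115 bound genes, 29 shared their locus with another gene. With each locus counted for its nearest gene only, 102 were bound and the differences were 9.73 (3.83 to 15.3) and 7.24 (3.38 to 11.6). With partners required to overlap by at least 50% of each peak, the interval of the difference between the arms reached 0 (5.12, -0.0816 to 10.02). With −log10 q of at least 5 the difference was 3.73 between the arms (0.865 to 6.49) and 1.04 from all other genes (-0.768 to 3.65), so the interval from all other genes then included 0.

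The comparison of the arms moved with the unit of counting. Peaks per 100 protein-coding genes were 75.4 in replicate 3 (exact Poisson 95% interval 67.4 to 84.2) and 54.6 in replicate 2 (47.8 to 62.1) on the long arm, and 49.3 (41.6 to 58.1) and 36.0 (29.4 to 43.5) on the short arm. The ratio of long to short arm was 1.53 in replicate 3 (1.25 to 1.87) and 1.52 in replicate 2 (1.20 to 1.93). Per Mb between the outermost annotated genes, the long arm had 3.24 peaks in replicate 3 and 2.35 in replicate 2, and the short arm had 3.31 and 2.41. That ratio was 0.979 in replicate 3 (0.802 to 1.20) and 0.972 in replicate 2 (0.769 to 1.24). The long arm held 4.29 protein-coding genes per Mb over 98.5 Mb and the short arm 6.71 over 43.5 Mb.

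Along the arm the calls gathered at the telomeric end. The stretch from 140 Mb on held 129 of the 319 peaks of replicate 3 (40.4%) and 89 of the 231 of replicate 2 (38.5%). It also held 61 of the 153 shared loci, and 104 of the 423 genes. Of those 104 genes 42 were bound (40.4%, exact 95% interval 30.9 to 50.5), against 73 of the 319 genes before it (22.9%, 18.4 to 27.9), a difference of 17.5 percentage points (Newcombe 95% interval 7.31 to 28.02). Genes can share a locus, and with each locus counted for its nearest gene only the difference was 11.4 (1.81 to 21.7). Without the stretch, the difference in bound share between the arms was 7.13 (0.839 to 13.3), and that from all other genes was 3.92 (-0.384 to 8.87). Without it the log2 ratio of peaks per gene between the arms was 0.27 in replicate 3 (-0.05 to 0.59) and 0.31 in replicate 2 (-0.07 to 0.69), against 0.61 and 0.60 on the whole arm. With −log10 q of at least 5 the difference in bound share between the stretch and the rest of the arm was 1.72 (-2.83 to 8.50), an interval that includes 0. Median fold in the stretch was 3.95 in replicate 3 and 3.78 in replicate 2, against 3.79 and 3.82 before it, so the libraries differed in which side was higher.

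**Figure D4:**
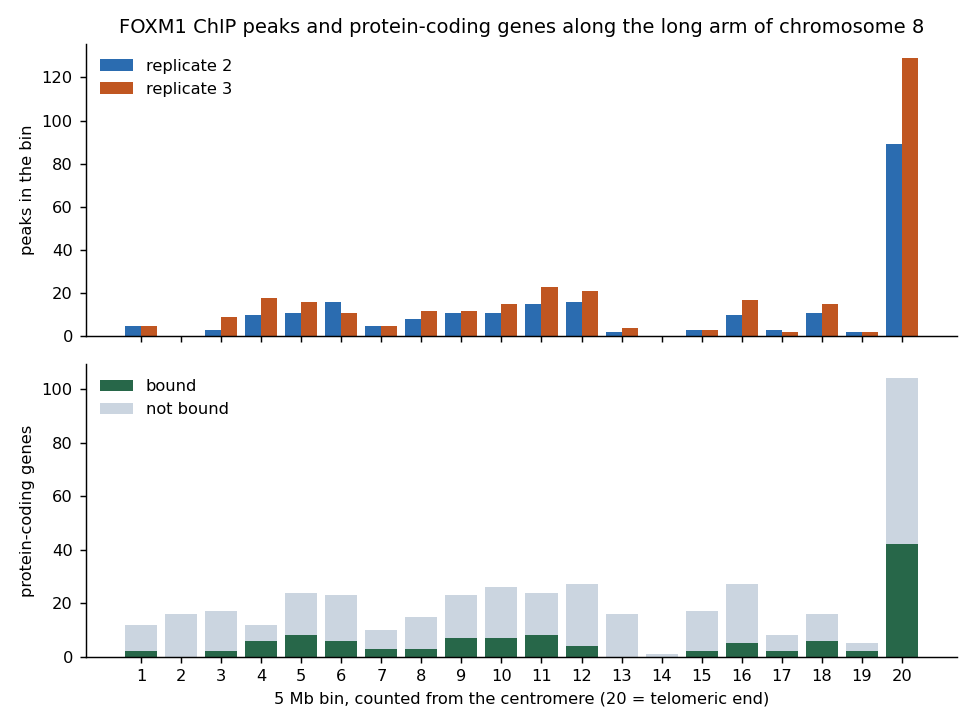
Upper panel: peaks of replicate 2 (blue) and replicate 3 (orange) in 20 bins of 5 Mb along the long arm, numbered from the centromere; the bin numbered 1 starts at 46 Mb and the bin numbered 20 runs from 140 Mb to the last gene. Lower panel: protein-coding genes in the same bins, bound (green, below) and not bound (grey). Bin 20 holds 129 peaks of replicate 3 and 89 of replicate 2, and 42 of its 104 genes are bound, while bins 2 and 14 have no peak.

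The telomeric stretch also held genes that were not bound. Of 12 genes of the LY6 family, surface proteins held by a lipid anchor or secreted, 11 were not bound, among them LY6E, LY6D, LY6K and LYNX1. The bound share of the family, 8.33%, had an exact 95% interval of 0.211 to 38.5, which includes the 27.2% of the arm. The interval lies below the 40.4% of the genes from 140 Mb on, among which the family is counted. This list too was drawn up with earlier results of these data known. The exception, PSCA, shared its locus with JRK (fold 5.26 in replicate 3 and 3.81 in replicate 2). Further along, FBXL6 shared a locus with the riboflavin transporter gene SLC52A2 (4.61 and 3.98), and BOP1, a ribosome biogenesis gene, shared one with HSF1, the heat shock transcription factor gene (2.40 and 4.13).

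The longest stretch of the arm with no peak in either library ran for 8.47 Mb (109644999 to 118111500) and held 9 protein-coding genes. They included CSMD3, KCNV1, the zinc finger gene TRPS1, the translation initiation gene EIF3H and the cohesin gene RAD21. The next, of 7.76 Mb (48008758 to 55773080), held 21 genes, among them SNAI2, SOX17, ST18, OPRK1 and TCEA1. MYC, which encodes the growth-promoting transcription factor, lay in a stretch of 2.36 Mb with no peak (125431300 to 127794445). The peak nearest to it was one of replicate 2 alone, 51585 bp from an end (fold 4.17), and the nearest peak of replicate 3 was 2196747 bp away.

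Of genes discussed in gain of the arm in liver and other cancers, 23 of 44 on the arm were bound (52.3%, exact 95% interval 36.7 to 67.5), beside 27.2% of the genes of the arm and 19.1% of all genes. Bound members such as SCRIB, PTK2 and PLEC, and the unbound AGO2, lie from 140 Mb on, where 40.4% of genes were bound. Members that share a locus, such as SCRIB with PUF60 and BOP1 with HSF1, are each counted, and the interval treats them as separate. The list was drawn up with earlier results of these data known and is no independent evidence. The median lower fold of its bound members was 3.41, against 3.53 over the bound genes of the arm and 3.61 over all bound genes. Besides SCRIB, PUF60, FAM83H, NDRG1 and HEY1 the bound members included YWHAZ, a 14-3-3 protein gene (4.80 in replicate 3 and 4.0 in replicate 2), TRIB1, a pseudokinase gene of lipid metabolism (3.87 and 4.09), and E2F5, a repressive E2F gene (3.62 and 5.78). PTK2, which encodes focal adhesion kinase, had 4.06 and 3.31, LAPTM4B, a lysosomal membrane protein gene, had 4.08 and 3.42, TPD52 had 4.54 and 3.41, and the phosphatase gene PTP4A3 had 4.54 and 3.54. Also bound were PABPC1, WWP1, SHARPIN, FABP5, KLF10, PLEC, RECQL4, RIPK2, SQLE, BOP1 and HSF1. With −log10 q of at least 5 in both libraries 5 of the 44 were bound, beside 23 of the 423 genes of the arm at that setting.

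The 21 members that were not bound differed in how near a peak came. PRKDC, the catalytic subunit of DNA-dependent protein kinase, and MCM4, a subunit of the replicative helicase, lie head to head, and both had a replicate 2 peak alone within 1 kb (fold 4.84, −log10 q 7.43). COX6C also had a replicate 2 peak alone (3.93). CCNE2, which encodes cyclin E2, had a replicate 3 peak alone, 59 bp from an end (4.30), and MTDH (3.27) and ATAD2 (2.81) likewise had a peak of replicate 3 alone. BAALC and ASAP1 had a peak of each library within 1 kb of an end that did not make a shared summit there. Neither library had a summit within 1 kb of an end of MYC, COPS5, NCOA2, ELOC, ENY2, TRPS1, EIF3H, RAD21, DERL1, NSMCE2, CCN4 or AGO2. Away from the ends, NCOA2 held the widest shared locus of the arm, and CCN4 held 1 peak of replicate 3. CCNE2 held a shared locus 1.399 kb from its nearer end, with fold 3.64 in replicate 3 and 2.88 in replicate 2. AGO2, a core protein gene of microRNA action, held 2 peaks of replicate 3 and 3 of replicate 2. Among them were shared loci at 140634960 to 140635331 (4.54 and 4.95) and 140635445 to 140636073 (4.14 and 3.60).

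The remaining lists, drawn up by role, are given as counts beside the 27.2% of the arm. Of 35 transcription factor genes 10 were bound (28.6%), led by HEY1, ZNF251 (4.97 in replicate 3 and 4.14 in replicate 2), CEBPD (4.08 and 4.15) and CHD7 (5.24 and 3.90). This list counts CHD7, a chromatin remodeller gene. It leaves out the bound zinc finger genes ZFAT and GLI4, whose lower folds were above that of HEY1. Of 19 genes of translation and the ribosome 8 were bound (42.1%, exact 95% interval 20.3 to 66.5), including RPS20 (4.02 and 4.92), PABPC1, the poly(A)-binding protein gene (4.12 and 3.92), RPL7 (4.11 and 3.88) and RPL8 (4.17 and 3.78). EIF3E, EIF3H and RPL30 were not. LACTB2, a bound member, encodes a mitochondrial nuclease, and without it 7 of 18 were bound. Of 30 genes of membrane traffic and the cytoskeleton 14 were bound (46.7%, 28.3 to 65.7), led by SCRIB, EXT1, RAB2A and STK3. This list is broad, and 8 members are better known for other roles (EXT1, STK3, PDE7A, NIPAL2, MATN2, LYN, SDC2 and MAPK15). Without them 9 of 22 were bound (40.9%).

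Of 22 genes of replication, repair and the cell cycle 6 were bound (27.3%, exact 95% interval 10.7 to 50.2): SPIDR, TONSL, SGK3 (4.46 in replicate 3 and 3.41 in replicate 2), NBN, TP53INP1 (3.74 and 3.09) and RECQL4 (3.31 and 2.78). SGK3, a kinase gene of the PI3K pathway, is known for another role, as are the unbound members CDH17, MTFR1 and POLR2K, and without these 4 the count was 5 of 18 (27.8%). Of the 22, a further 5 had a peak of replicate 3 alone and 2 a peak of replicate 2 alone. Among all 423 genes of the arm, 53 unbound genes had a peak of replicate 3 alone and 25 a peak of replicate 2 alone. Of 34 mitochondrial and metabolic genes 10 were bound (29.4%), led by GGH, the vitamin E transfer gene TTPA (4.22 and 4.04), DGAT1, an enzyme of triglyceride synthesis (3.99 and 3.71), and GPAA1 (5.23 and 3.46). Without PLEKHF2, a bound endosomal protein gene, the count was 9 of 33. CYP7A1, the rate-limiting enzyme of bile acid synthesis, had its nearest peak 159500 bp away, and CYP7B1 had a replicate 2 peak alone (4.72). Of 19 genes of ubiquitin and the proteasome 4 were bound: FBXL6, RNF139 (3.95 and 3.98), WWP1 (3.37 and 3.58) and SHARPIN (3.82 and 3.31). Of 18 genes of RNA processing and transcription 5 were bound, PUF60, KHDRBS3 (4.08 and 4.18), INTS8 (3.65 and 3.53), CPSF1 (3.74 and 3.49) and MAF1 (3.82 and 3.31).

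Genes of cell types other than hepatocytes are given last. Of 27 genes of neurons and sensory cells 4 were bound (14.8%, exact 95% interval 4.19 to 33.7): KCNS2, the corticotropin-releasing hormone gene CRH (4.80 in replicate 3 and 4.07 in replicate 2), GRINA (6.10 and 3.52) and JPH1 (3.64 and 3.42). The locus at KCNS2 also lies inside STK3. JPH1 is known chiefly from muscle, and without it, CDH17 and SLC7A13 the count was 3 of 24. Of 25 genes of blood, endocrine and other cell types 1 was bound (4%, 0.101 to 20.4), the matrix gene MATN2 (2.52 and 3.88). IL7, TG, SLC30A8 and FABP4 were among those not bound. These shares stand beside 27.2% of the genes of the arm and 19.1% of all protein-coding genes. The interval of the neuron and sensory list includes both values, and that of the blood and endocrine list includes the 19.1%.

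Of the noncoding genes of the arm, 40 of 563 lncRNA genes had a shared summit within 1 kb of an end (7.1%, exact 95% interval 5.12 to 9.55), against 5.75% of all lncRNA genes. Of 57 microRNA genes 5 did (8.77%, 2.91 to 19.3), against 3.77% of all microRNA genes. At 30 of the 40 lncRNA genes and 4 of the 5 microRNA genes the summit also lay within 1 kb of a protein-coding gene end, so most of these calls are loci already counted above. An example is SNHG6, whose locus lies at an end of MCMDC2 (fold 3.98 in replicate 3 and 4.09 in replicate 2).

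The local background under the peaks was higher on the long arm than on the short arm. It was rebuilt from the deposited fold and p and stands for the control, taken to be the input, at each summit. Its median was 5.00 fragments in replicate 3 and 5.04 in replicate 2 on the long arm, 4.03 and 4.79 on the short arm, and 5.00 in both libraries on the other chromosomes. In replicate 3 48.0% of long-arm peaks and 28.5% of short-arm peaks exceeded the list's median of 5.00, a difference of 19.5 percentage points (Newcombe 95% interval 9.94 to 28.2). In replicate 2 it was 50.2% and 34.3%, a difference of 15.9 (4.49 to 26.5). On the other chromosomes the shares were 43.5% and 48.9%. The libraries are not independent here, since both backgrounds may come from the same control. The peaks of each list were also selected by this background, and the part of that selection and of copy number in the difference was not tested. With −log10 q of at least 5 the difference was 10.0 in replicate 3 (-9.87 to 26.3) and 16.7 in replicate 2 (-5.62 to 35.6).

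**Figure D5:**
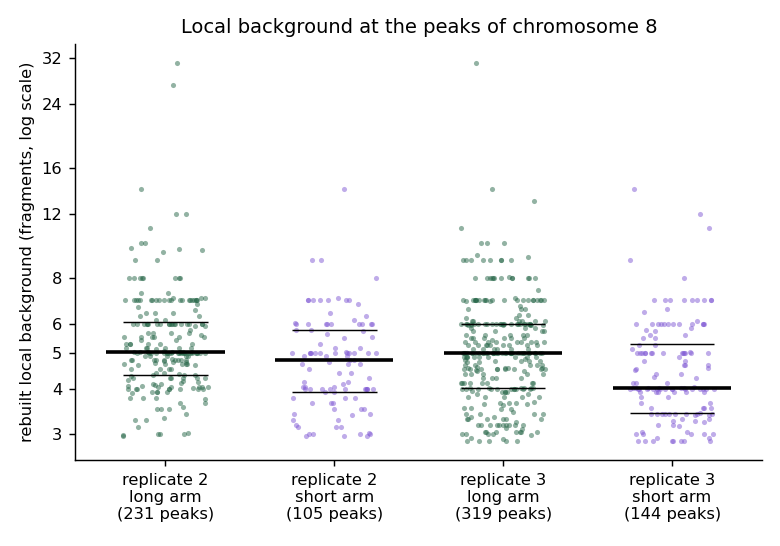
Rebuilt local background in fragments (vertical axis, log scale) at each peak of chromosome 8, by library and arm; thick lines are medians and thin lines quartiles. The medians are 5.04 on the long arm and 4.79 on the short arm in replicate 2, and 5.00 and 4.03 in replicate 3; many values are whole numbers, so medians move in steps.

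The highest background on the arm was 31.0 fragments in both libraries, at a shared locus 7530 bp from WDR97 (144125641 to 144126056). Its fold, 1.85 in replicate 3 and 1.97 in replicate 2, was the lowest of the shared loci of the arm, although it rested on 67 and 73 fragments. The highest −log10 q of the arm stood at REXO1L1P, a pseudogene of a tandem array of near-identical copies, and was not shared. There replicate 3 had a peak with −log10 q 18.9 and fold 8.19 on 46 fragments (85661492 to 85661622). Replicate 2 had one with −log10 q 12.9 and fold 4.25 on 64 fragments (85661100 to 85661259), over backgrounds of 4 fragments in replicate 3 and 12 in replicate 2. The summits were 393 bp apart. Unique mapping of reads in this array was not examined, and these values are uncertain.

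Peaks called in 1 library alone numbered 155 in replicate 3 and 65 in replicate 2. Besides the array, the strongest of replicate 3 by −log10 q lay at the zinc finger gene ZNF34 (fold 5.70), at TONSL (5.43), at SCRT1 (5.34) and in ASAP1 (4.66). Those of replicate 2 lay at the phosphatidylserine synthase gene PTDSS1 (5.11), MCM4 (4.84), TP53INP1 (4.56) and CYP7B1 (4.72). At TONSL, TP53INP1 and ASAP1 the other library had a summit within 1000 bp without overlap of the peaks. Within 1 kb of a gene end lay 61.3% of the unshared and 68.9% of the shared peaks of replicate 3, and 58.5% and 69.3% in replicate 2, with overlapping exact 95% intervals.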

How the data were processed

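The submitters' processing notes name GRCh38, MACS2 2.2.7.1, BWA and CASAVA 1.4, with no order or role. The control library, filters and handling of duplicates are not given in the sources used here. The authors deposited 1 peak list and 1 summit list per ChIP library, not pooled. Each deposited peak has a fold enrichment (a linear ratio with a pseudocount of 1), a −log10 p and a −log10 q at its summit. The deposited score is the −log10 q times 10 and was not used. The deposited summit offset, another kind of value, gave the summit in bp. Values of −log10 q started at 1.31 (replicate 3) and 1.32 (replicate 2), so a missing peak says only that the threshold of q 0.05 was not passed.

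Fragments and backgrounds were rebuilt from fold, read as a ratio of scaled fragments to background with 1 added to each, and from p, read as a Poisson upper tail. Whole counts were recovered for 100% of peaks within 0.001 of −log10 p, at scales of 0.869 in replicate 3 and 0.848 in replicate 2. The control was inferred from scales below 1. Coordinates are 1-based on GRCh38, chromosome 8 where none is named. Genes came from a RefSeq table of GRCh38.p14 without strand or exons. Intervals are exact Clopper-Pearson for shares, exact Poisson for counts and Newcombe's for differences, at 95%, and cover counting error only.

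The members, the 11 gene lists and the tests were chosen with earlier results of these data known. Of 317 list entries 285 lay on the long arm as protein-coding genes. Counts without members of other known roles were added after the values were seen. Named were the 20 bound genes of highest lower fold, the 4 top bound members by that rank in a list, and the genes discussed in gain of the arm, of which 1 is not reported here. The 5 strongest shared loci over 5 kb from a gene end, the 3 widest loci and the 5 peaks of highest −log10 q of each library alone were also named. Others (SNHG6, CYP7A1, EIF3E, RPL30, the unbound LY6, blood and endocrine genes, WDR97, REXO1L1P, genes in empty stretches) were chosen after their values were seen. Promoter motifs and gene starts needed sequence or strand for chromosome 8 and were not analysed. Computations used Python 3.11.15, numpy 2.4.6, pandas 2.3.3, SciPy 1.17.1, networkx and matplotlib 3.10.9, tested on simulated data, with overlaps checked against bedtools 2.31.1 (difference 0).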

Additional observations from a re-analysis of the deposited data

How the results depend on the processing

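Across the alternatives, 55 recomputed values or counts kept their direction and their side of the threshold (an interval that excludes 0; for counts, within 1.5 times). Of the others, 11 reversed direction, 8 lost and 1 gained an interval that excludes 0, and 7 counts moved beyond 1.5 times. Per Mb, the log2 ratio of peak density between the arms was -0.031 in replicate 3 and -0.041 in replicate 2, and without the last 5 Mb it was 0.27 and 0.31. The difference in the share of peaks with a partner was -0.954 and -1.04 percentage points with a reciprocal overlap of at least 50%. The difference in the share above the median fold was -10.6 in replicate 3 and -17.2 in replicate 2 with −log10 q of at least 5, and -2.95 in replicate 3 without the last 5 Mb. Ranked by −log10 q instead of fold, the share differed by 12.6 in replicate 2. The background difference with −log10 q of at least 5 was 10.0 in replicate 3 and 16.7 in replicate 2. The difference in loci at gene ends was 20.0 with −log10 q of at least 5, 2.98 without the last 5 Mb, 2.94 with summits within 100 bp and 2.93 with ends of all gene types. The bound share differed between the arms by 5.12 with reciprocal overlap. It differed from all other genes by 1.04 with −log10 q of at least 5 and by 3.92 without the last 5 Mb. The difference between the last 5 Mb and the rest of the arm was 1.72 with −log10 q of at least 5. Bound genes numbered 23 with −log10 q of at least 5, 68 with reciprocal overlap and 68 with summits within 100 bp, and shared loci numbered 30, 90 and 88. Stricter settings keep fewer peaks by construction; the cause of the other changes was not tested.

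With 1 library alone, bound genes numbered 144 without replicate 3 and 174 without replicate 2. The difference from the short arm was then 10.7 to 12.1 percentage points, that from all other genes 9.09 to 9.23, that of the last 5 Mb from the rest of the arm 14.8 to 20.7, and that in loci at gene ends -3.55 to -1.39. The alternatives of per Mb density and nearest gene only, and those for the counts and the last 5 Mb, were chosen after seeing the data. An alternative with gene starts alone was not run, since strand was not used here. No paired analysis was possible because the 2 ChIP libraries form 1 group. A median of 26 to 27 fragments per peak leaves wide intervals on each fold, so the order of named genes is loose.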
